A study of Mus musculus with 6 samples.

Results

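The genes described here are 10 genes of a lipid-handling state of macrophages and microglia that depends on the receptor Trem2: Trem2, Tyrobp, Apoe, Lpl, Gpnmb, Spp1, Itgax, Clec7a, Cd9 and Fabp5. They were taken by symbol from a table of 33924 genes, in which all 10 were found and all 10 were among the 18636 tested genes, meaning genes with a deposited adjusted p. The list was chosen from prior knowledge of this state and with the age differences of this same table known, so the values below describe the genes and test nothing about them. RNA was measured in RPE/choroid, the retinal pigment epithelium (RPE) and the vascular layer under it, from 3 young and 3 aged wild-type C57BL/6J mice, with no treatment and no altered allele named. The labels call all 6 mice male and give the young age as 1-2 months. For the aged mice the sample titles give 20-24 months and the time label 22-24 months. In its methods the study describes mice of both sexes and a somewhat higher young age, and gives 2 eyes per sample without saying whether they came from 1 mouse. The cornea, iris and neural retina are removed before the pigmented layer is scraped off the sclera, so a library holds pigment cells, vessels, connective tissue and immune cells together.

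The unit of level is the deposited baseMean, the mean normalized count over all 6 libraries. Age differences are deposited log2 fold changes with their standard error (SE), given here as aged over young, and intervals are 95% intervals from that SE. The table does not name its direction, which was taken from the numbers of higher and lower genes that the study gives, so each direction below rests on that reading. Genes were measured in the same libraries and how their errors move together is unknown here, so whether the intervals of a pair of genes overlap describes the size of each error and does not test the difference between the genes. No value per mouse was analysed here, so neither the spread over mice nor an overlap of the groups can be shown. Means for young and aged mice were worked out from baseMean and fold change and carry no error of their own. Where a gene is said below to rise or fall by a number, that number is its log2 fold change and its deposited adjusted p was under 0.05. Levels of the 10 genes are compared with one another per kb of the principal annotated transcript. A baseMean is not divided by length, and for other genes it is given only to show how much signal lies behind a value. The baseMean values summed to 19192071 over all genes, and the 10 genes held 0.751% of that sum.

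Trem2 is a lipid-sensing receptor at the surface of macrophages, microglia and osteoclasts. It has no signalling tail of its own and works through the adaptor Tyrobp, which recruits the kinase Syk once its tyrosines are phosphorylated. Phagocytes that meet much lipid debris, as around amyloid plaques, in damaged myelin or in obese fat, turn on a shared group of genes for lipid uptake, lysosomal digestion and adhesion, while microglia lower the genes of their resting state. In the aging eye, phagocytes gather at the outer retina and choroid, where the RPE takes up and digests photoreceptor membranes.

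Every one of the 10 genes had a higher value in aged mice, with log2 fold changes from 0.20 for Lpl to 5.43 for Itgax and a median of 2.10. The median over all tested genes was -0.01. By the deposited adjusted p, 9 of the 10 were under 0.05, all of them higher in aged mice, whereas 11.3% of all tested genes were higher and 9.92% lower by the same rule. Since the members were selected on this contrast, nothing is read from that count. In whole tissue, more cells of a kind and more RNA per cell cannot be told apart, and this holds for each value that follows.

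**Figure D1:**
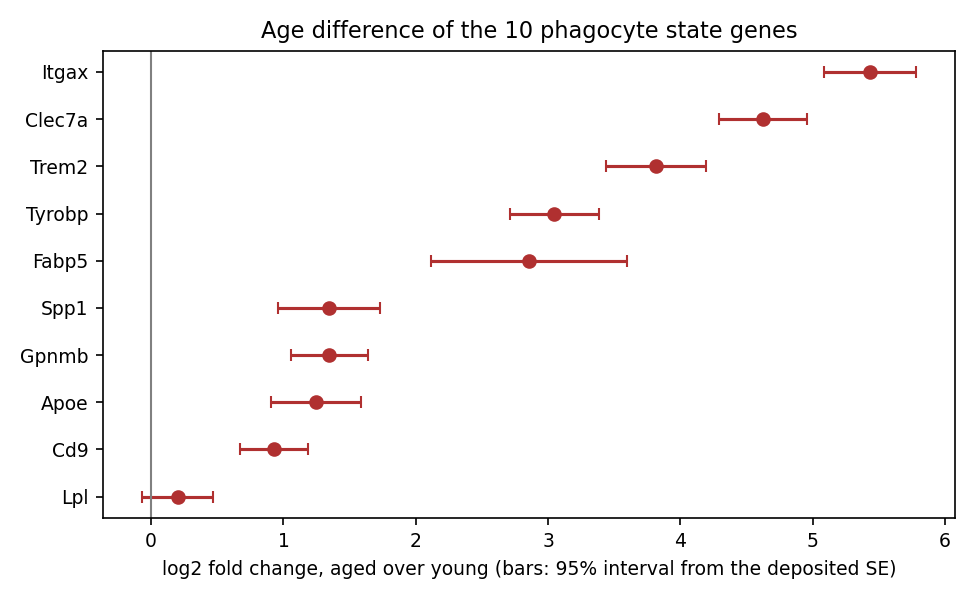
Log2 fold change, aged over young, of the 10 genes in order of size, with bars for the 95% interval from the deposited SE. Itgax, Clec7a and Trem2 stand at 5.43, 4.62 and 3.82 with intervals apart from one another, Fabp5 has the widest interval, and that of Lpl spans 0.

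The receptor and its adaptor come first. Trem2, on chromosome 17 at 48346401 to 48354147 (GRCm38, plus strand), had a baseMean of 1385, with worked-out means of 184 in young and 2586 in aged mice. Its log2 fold change was 3.82 (SE 0.19), a 14.1-fold higher level with an interval of 10.8 to 18.3. It ranked 23rd in size of rise among the 18636 tested genes. For Tyrobp, on chromosome 7 at 30413760 to 30417585, the worked-out means were 373 and 3087, and the log2 fold change was 3.05 (SE 0.17). The value of the adaptor was below that of its receptor, and their intervals did not overlap (2.71 to 3.38 for Tyrobp, 3.44 to 4.20 for Trem2). Per kb of transcript the adaptor stood above the receptor at both ages, at 662 against 169 in young and 5473 against 2377 in aged mice. Tyrobp also serves several other receptors of myeloid and natural killer cells.

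Surface receptors of phagocytes showed the largest differences. Itgax, which encodes the integrin alpha chain CD11c found on dendritic cells and activated macrophages, lies on chromosome 7 at 128129547 to 128150657. Its worked-out mean was 79.5 in young and 3434 in aged mice. The log2 fold change of 5.43 (SE 0.18), a 43.2-fold higher level (interval 34.0 to 54.9), was the 4th largest among tested genes. Clec7a, on chromosome 6 at 129461591 to 129472779 (minus strand), encodes Dectin-1, a lectin receptor for fungal beta-glucans. It went from a worked-out 204 to 5035, a log2 fold change of 4.62 (SE 0.17) and the 12th largest. The annotation used here types Clec7a as a polymorphic pseudogene, a class for genes that are intact in some mouse strains and not in others. In young mice Itgax was the lowest of the 10 genes per kb of transcript, at 19.6, and in aged mice Lpl was, at 297.

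These genes and Trem2 differed most between the ages, so the 250 bases before their start sites, and those of the secreted factor Spp1 as a moderately changed member, are shown from RefSeq (GRCm38.p6), 5′ to 3′ on the strand of the gene. Capitals mark the letters GAGGAA, the core bound by the myeloid factor PU.1, and TGANTCA, the site of AP-1, each searched on both strands with the E-box letters CACGTG. The regions are chr7:128129300-128129549 (plus strand), chr6:129472780-129473029 (minus), chr17:48346151-48346400 (plus) and chr5:104434861-104435110 (plus).
Itgax: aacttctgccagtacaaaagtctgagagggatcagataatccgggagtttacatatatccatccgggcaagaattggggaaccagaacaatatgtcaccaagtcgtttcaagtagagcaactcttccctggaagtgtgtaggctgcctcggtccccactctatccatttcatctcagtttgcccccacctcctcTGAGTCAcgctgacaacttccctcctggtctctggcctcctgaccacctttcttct
Clec7a: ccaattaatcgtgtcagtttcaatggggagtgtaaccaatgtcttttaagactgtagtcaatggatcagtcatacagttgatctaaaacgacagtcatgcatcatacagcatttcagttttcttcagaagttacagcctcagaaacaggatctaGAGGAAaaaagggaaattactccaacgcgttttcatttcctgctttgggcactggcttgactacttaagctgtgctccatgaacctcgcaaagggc
Trem2: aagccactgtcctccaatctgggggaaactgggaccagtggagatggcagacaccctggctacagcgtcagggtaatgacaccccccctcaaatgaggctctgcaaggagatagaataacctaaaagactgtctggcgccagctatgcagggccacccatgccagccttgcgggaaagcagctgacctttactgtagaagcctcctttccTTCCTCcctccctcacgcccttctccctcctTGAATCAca
Spp1: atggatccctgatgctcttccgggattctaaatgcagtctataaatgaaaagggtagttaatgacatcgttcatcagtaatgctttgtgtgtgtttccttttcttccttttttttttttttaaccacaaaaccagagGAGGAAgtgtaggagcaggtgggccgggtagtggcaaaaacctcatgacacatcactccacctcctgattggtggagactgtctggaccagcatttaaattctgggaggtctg

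In these windows Trem2 held 1 PU.1 core, on the opposite strand at position -40, and 1 AP-1 site at -9, counting the first base of the match back from the start site. Itgax held 1 AP-1 site at -56. Clec7a and Spp1 held 1 PU.1 core each, at -96 and -113. The promoter table had entries for 7 of the 10 genes. Of the other 3 with entries, Apoe held 1 PU.1 core at the far end of the window, at -250, and neither Gpnmb nor Cd9 held any of the letters searched. E-box letters were in 0 of the 7. Among 32851 windows of this length in the table, 23.25% held the PU.1 core, 6.75% the AP-1 letters and 6.02% the E-box, and no marked motif overlapped another. Tyrobp, Lpl and Fabp5 were without an entry.

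Lipid carriers and enzymes did not move as one. Apoe, the apolipoprotein that carries cholesterol between cells and is made in the eye by RPE and glia as well as macrophages, lies on chromosome 7 at 19696109 to 19699188. Its level per kb was the highest of the 10 at both ages, at 37088 in young and 87941 in aged mice, and its baseMean of 88021 made up 61.1% of their summed baseMean. Its worked-out mean was 52220 in young and 123821 in aged mice, a log2 fold change of 1.25 (SE 0.17) or 2.37-fold (interval 1.88 to 2.99). Fabp5, a fatty acid-binding protein of macrophages and epithelia on chromosome 3 at 10012548 to 10016607, had worked-out means of 661 and 4784. Its log2 fold change of 2.86 carried an SE of 0.38, and the interval of 4.34-fold to 12.1-fold was the widest of the list on the log scale.

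Lpl stood apart from the rest. It encodes lipoprotein lipase, which frees fatty acids from circulating triglycerides, and lies on chromosome 8 at 68880491 to 68907448. The worked-out means were 1066 in young and 1224 in aged mice. The log2 fold change was 0.20 (SE 0.14) with an interval from -0.07 to 0.47, and the deposited adjusted p was 0.320. Its SE was close to the 0.14 median of the 3127 tested genes with a baseMean within 1.5-fold of it, so a rise of more than 1.39-fold lies outside the interval. For Gpihbp1, which anchors the enzyme on capillary walls, the value was 0.18 (SE 0.27) with an adjusted p of 0.706, at a baseMean of 77.2.

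Gpnmb, Spp1 and Cd9 showed moderate differences. Gpnmb, a glycoprotein of lysosomes and melanosomes that pigment cells also make, lies on chromosome 6 at 49036546 to 49070929 and went from a worked-out 20127 to 51134, a log2 fold change of 1.35 (SE 0.15). Spp1, on chromosome 5 at 104435118 to 104441050, encodes osteopontin, a secreted ligand of integrins and CD44. Its log2 fold change was likewise 1.35 (SE 0.20), from a worked-out 4001 to 10166. Cd9, a tetraspanin of many cell types on chromosome 6 at 125460266 to 125494791, had 0.93 (SE 0.13), the smallest among the 9 genes under the threshold, from a worked-out 1418 to 2700. In linear terms these 3 genes were 2.54-fold, 2.54-fold and 1.90-fold higher.

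**Figure D2:**
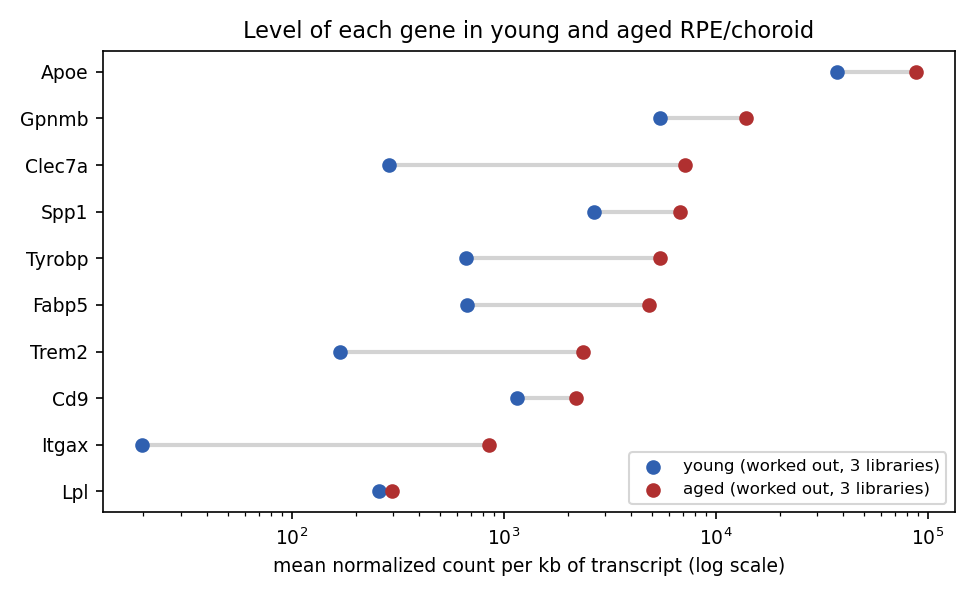
Worked-out mean normalized count per kb of transcript (log scale) of each gene in young (blue) and aged (red) mice, ordered by the aged level. Apoe leads at both ages, Itgax climbs from the lowest young level of 19.6 to 849, and Lpl moves least, from 259 to 297.

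Per kb of transcript, the 4 genes with a worked-out young level above 1000, which are Apoe, Gpnmb, Spp1 and Cd9, had log2 fold changes from 0.93 to 1.35. Of the 6 genes below that level, Lpl had 0.20 and the other 5 had 2.86 to 5.43. A young level worked out from the fold change depends on it, so these values only describe the list. In order of fold change, the intervals of neighbours were apart between Itgax and Clec7a, Clec7a and Trem2, Trem2 and Tyrobp, Fabp5 and Spp1, and Cd9 and Lpl. Those of Tyrobp and Fabp5, and those of successive genes from Spp1 through Gpnmb and Apoe to Cd9, overlapped. Apoe set the summed level of the list, which was 2.59-fold higher in aged mice, below the fold of 5 of its members.

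The SE of Fabp5 was large for its baseMean. Among the 1698 tested genes with a baseMean within 1.5-fold of it, the median SE was 0.14, and 98.8% had a smaller SE than Fabp5. Of the 4547 tested genes with a baseMean of at least 1000, 77 had an SE as large. For the other 9 members the SE lay between 0.13 and 0.20. Rod photoreceptor markers and surface epithelium markers had such large SEs too, as the plot of SE against baseMean shows. The 8 rod photoreceptor markers had SEs of 0.38 to 0.44, and in the authors' DESeq2 comparison 0 of them were called, beside 11.3% of all tested genes called higher and 9.92% lower, and 0 had an unadjusted p under 0.05. A list of 10 genes of corneal and conjunctival epithelium, which also make Fabp5, was chosen only once values were known and had SEs of 0.39 to 0.46. All 10 of these had values below 0, with a median of -0.77, and 1 of them, Trp63, was called lower, a share close to the 9.92% of all tested genes. Their summed worked-out level was 17661 in young and 10134 in aged mice, and none stood at 0. The part of either tissue in the value or the SE of Fabp5 was not tested. Lgals3, another phagocyte gene that epithelia make, had an SE of 0.37 beside a log2 fold change of 2.35.

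**Figure D3:**
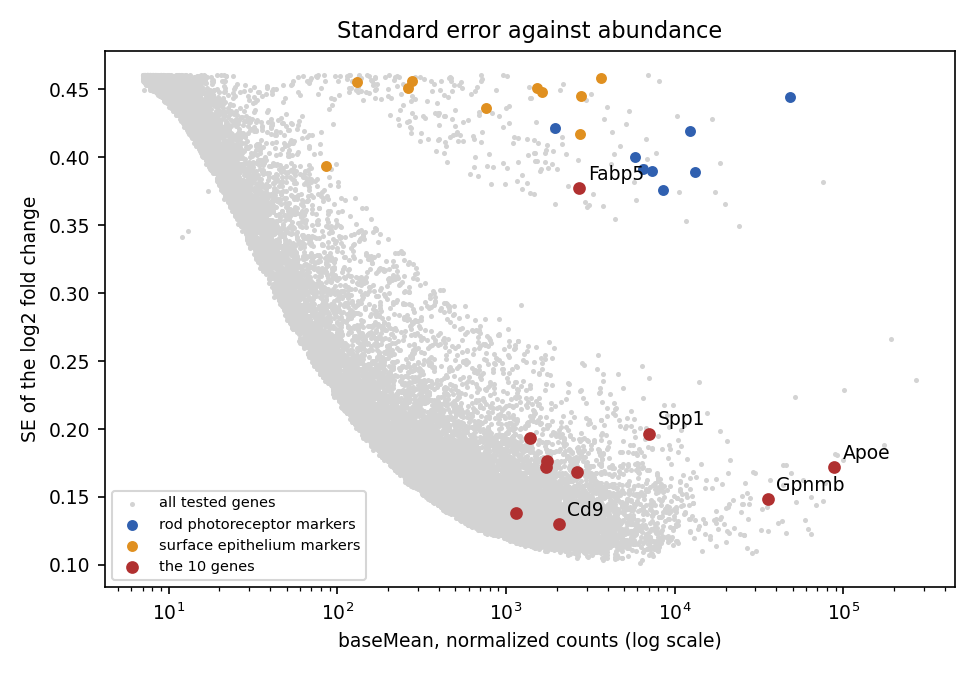
SE of the log2 fold change against baseMean (log scale) for all tested genes (grey), the 10 genes (red), rod markers (blue) and surface epithelium markers (orange). Fabp5, at an SE of 0.38, lies in the upper band with both marker lists, and the other 9 genes lie between 0.13 and 0.20.

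Sequence shared with other genes was compared in the annotated transcripts, while reads that fell in it could not be counted here. Of all 31-base words in the annotated transcripts of a gene, a share of 100% was found in no other gene for Trem2, Tyrobp and Apoe. The lowest shares were 85.7% for Spp1, through an overlapping gene of the same strand, 89.2% for Cd9 and 89.3% for Itgax. Itgax shared its words with its neighbour Itgad, whose baseMean was 9.52, and Fabp5 had 90.8% to itself, sharing with 12 genes. Cd9 overlaps 2 non-coding genes of the opposite strand, and whether strand was used in counting is not given in the sources used here.

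Relatives of each member were compared to see how far a difference extended over its family. The counts of each family stand beside the 11.3% of all tested genes that rose. Each count includes the member itself, chosen with its age difference known, so the share is not that of the relatives alone. Of the Trem and Treml genes, 5 were tested and 4 were called higher, Trem2 included. Treml2 rose by 1.91 (SE 0.38), Trem1 by 1.23 (SE 0.46) and Treml4 by 1.11 (SE 0.33), with baseMeans of 36.6, 7.55 and 39.5. Treml1 was not called, and Trem3 was too low for an adjusted p. Beta-2 integrin genes rose throughout, 5 of 5, Itgax included. Itgb2, the beta chain that Itgax needs to reach the surface, rose by 3.58 (SE 0.14), and the alpha chains Itgal, Itgad and Itgam by 1.92, 1.80 and 1.37. The interval of Itgax, 5.09 to 5.78, lay above those of all 4.

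Among fatty acid-binding protein genes 5 were tested, and 2 rose, Fabp5 and Fabp4. The latter is the form of fat cells and macrophages, and its log2 fold change was 1.02 (SE 0.20). Fabp3 (0.06), Fabp7 (-0.02) and Fabp6 (-0.89) were not called, Fabp2 and Pmp2 were too low for an adjusted p, and Fabp1 stood at 0. Of the lectin genes of the Clec7a cluster 6 were tested, Clec7a included, and 2 rose, Clec7a and the inhibitory receptor Clec12a, the latter by 2.25 (SE 0.18). Clec1a (0.35), Clec9a (-0.04), Clec2d (-0.21) and Clec1b (-0.42) were not called, and Clec12b and Olr1 were too low for an adjusted p.

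Of the tetraspanins, 4 of 9 rose, Cd9 included. The leukocyte forms Cd53 and Cd37 had log2 fold changes of 2.38 (SE 0.15) and 1.53 (SE 0.24), and the interval of Cd53 lay above that of Cd9 while that of Cd37 overlapped it. The lysosomal Cd63 rose by 0.70. Cd81, Cd82, Tspan7, Cd151 and Tspan4 lay between -0.11 and 0.15 and were not called. The lipases nearest to Lpl had baseMeans of 10.5 for Lipc and 12.6 for Lipg, and 0 of the 3 tested, Lpl included, were called. At an unadjusted p under 0.05 there were also 0. Spp1 was the only tested gene of its bone sialoprotein family, Dspp standing at 0 and Ibsp, Dmp1 and Mepe being too low. Pmel, the melanosomal relative of Gpnmb, had -0.23 (SE 0.16, adjusted p 0.322), and its interval lay below that of Gpnmb.

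**Figure D4:**
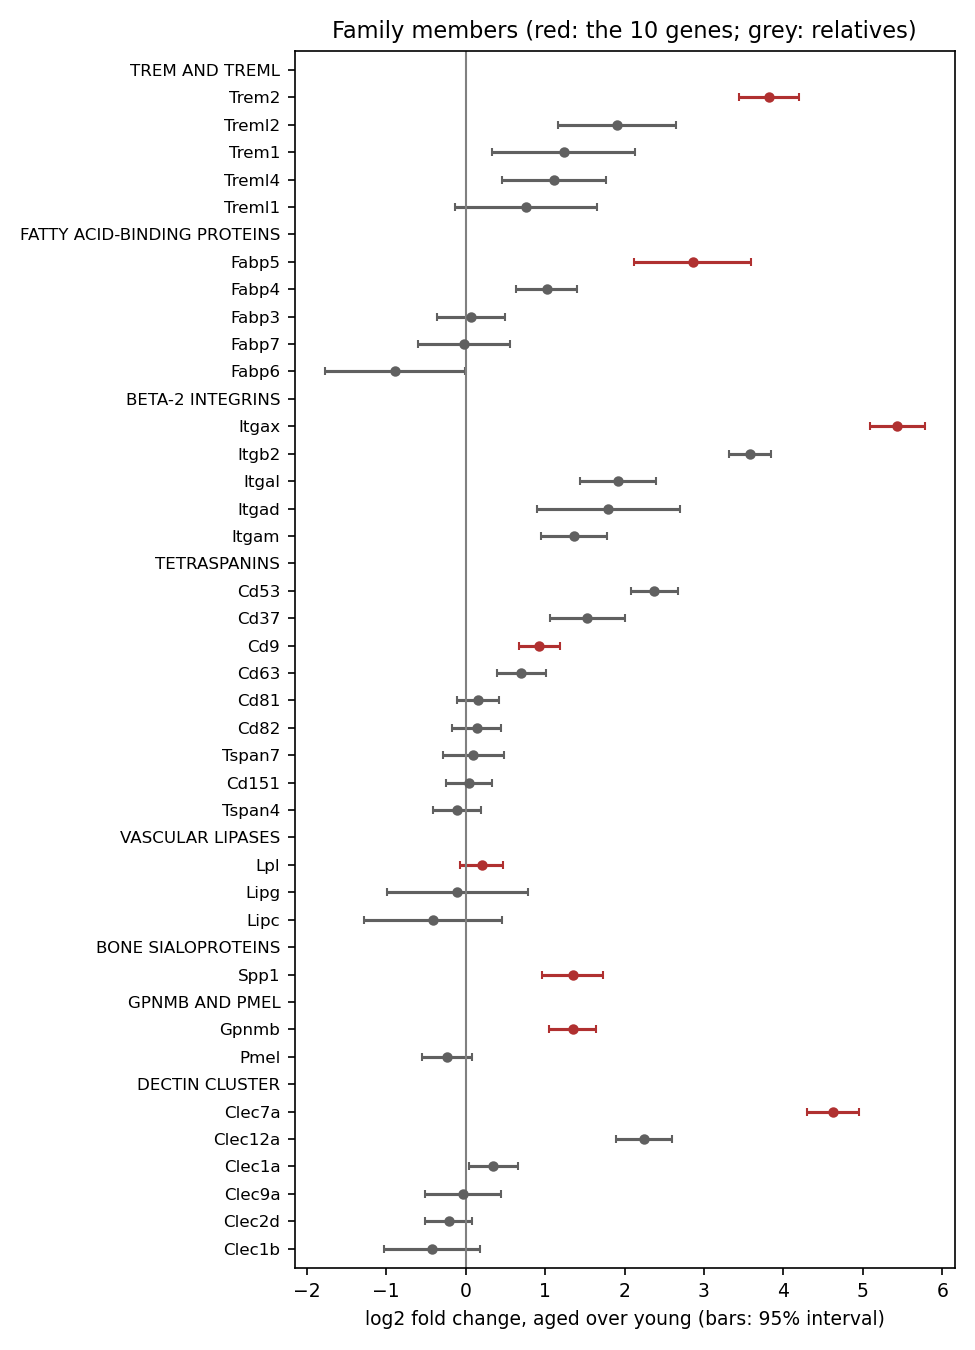
Log2 fold change, aged over young, with its 95% interval, for tested genes of the family of each member (red for the 10 genes, grey for relatives). Itgax and Clec7a lie above all their relatives, Cd9 lies below Cd53 with its interval reaching into that of Cd37, and Gpnmb and Pmel lie on opposite sides of 0.

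Signalling genes below the receptor were mostly higher in aged mice. Of 18 listed, all were tested, 15 rose and 0 fell, with a median of 1.23. The share of 83.3% stands beside 11.3% over all tested genes. Syk, the kinase recruited by Tyrobp, rose by 1.78 (SE 0.16), and Vav1, an exchange factor for small GTPases, by 1.97 (SE 0.15), the most of the list. Inpp5d, a lipid phosphatase that restrains the pathway, rose by 1.49 (SE 0.14). Spi1, which encodes PU.1, rose by 1.58 (SE 0.21). Adam10 and Adam17, the proteases that shed Trem2 from the surface, had 0.26 (SE 0.12, adjusted p 0.104) and 0.24 (SE 0.12, adjusted p 0.155), and Vav3 had 0.30 (adjusted p 0.190). Each of the 15 genes that rose had a smaller fold change than Trem2 and Tyrobp, which were chosen with their values known, so nothing is read from that order.

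In a list of receptors that couple to Tyrobp or to its relative Fcer1g, with Fcer1g itself counted, 10 of 13 tested genes rose, with a median of 1.81, and 11.3% of all tested genes rose. Clec4d, a C-type lectin of macrophages, had the largest value of the list, 5.31 (SE 0.23), with an interval that overlapped that of Itgax. Fcer1g itself rose by 1.75 (SE 0.20), less than Tyrobp. Hcst, the adaptor encoded next to Tyrobp and counted among the signalling genes, rose by 1.61 (SE 0.35) at a baseMean of 31.7. Siglech, Pilrb1 and Pilrb2 were not called, with values from -0.10 to 0.69, and Trem3 and Oscar were too low for an adjusted p.

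Other genes known from this phagocyte state rose in 21 of 29 tested genes, and 1 fell, beside 11.3% and 9.92% of all tested genes. Their median was 0.91, below that of the 10 genes, which were chosen with their values known. Ctss, a cathepsin of antigen-presenting cells, had the largest rise, 4.56 (SE 0.17), and Ctsd, the lysosomal aspartic protease, rose by 1.45 (SE 0.16) at a baseMean of 78164. Lyz2, the lysozyme gene of macrophages, had 4.09 (SE 0.17) at a baseMean of 38571 but no deposited p, so it was not among the tested genes. Cd68, a lysosomal membrane protein of macrophages, rose by 3.37 (SE 0.14). Igf1, a growth factor that such microglia secrete, fell by 0.47 (SE 0.13). Csf1, Ccl4, Lgals1, Ctsl, Ch25h, Cadm1 and Hif1a were not called, with values from -0.27 to 0.91.

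Genes of lipid uptake, storage and efflux rose in 17 of 29 tested genes and fell in 1, beside the same 11.3% and 9.92%, with a median of 0.59. Apod, a lipid carrier of the lipocalin family, rose by 2.80 (SE 0.12), the most of this list. The scavenger receptor gene Cd36 rose by 2.04 (SE 0.13), and the lysosomal lipase gene Lipa by 1.53 (SE 0.16). Abcg1 and Abca1, which export cholesterol to lipoproteins, rose by 1.16 (SE 0.18) and 0.59 (SE 0.12). Lrp1, a receptor for Apoe-bearing particles, rose by 0.96 (SE 0.16). Receptors of osteopontin had smaller values than Spp1, though the interval of Itgb5 (0.52 to 1.07) overlapped that of Spp1 (0.96 to 1.73). Of 8 tested genes 3 rose, Itgb5 by 0.79 (SE 0.14), Itga4 by 0.56 and Cd44 by 0.52, and 0 fell, beside 11.3% and 9.92% of all tested genes.

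Resting microglia genes, which microglia lower on entering this state, did not fall as a list. Of 16 tested genes, 5 rose and 2 fell, with a median of 0.30, beside 11.3% and 9.92% over all tested genes. The genes that fell were Olfml3, by 0.57 (SE 0.17), and Txnip, by 0.32 (SE 0.12). P2ry12 and Tmem119, which mark microglia of the retina and brain, had -0.03 (SE 0.22) and 0.03 (SE 0.16), at baseMeans of 137 and 731. Cst3, a secreted inhibitor of cathepsins, had 0.23 (SE 0.17) and was not called.

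**Figure D5:**
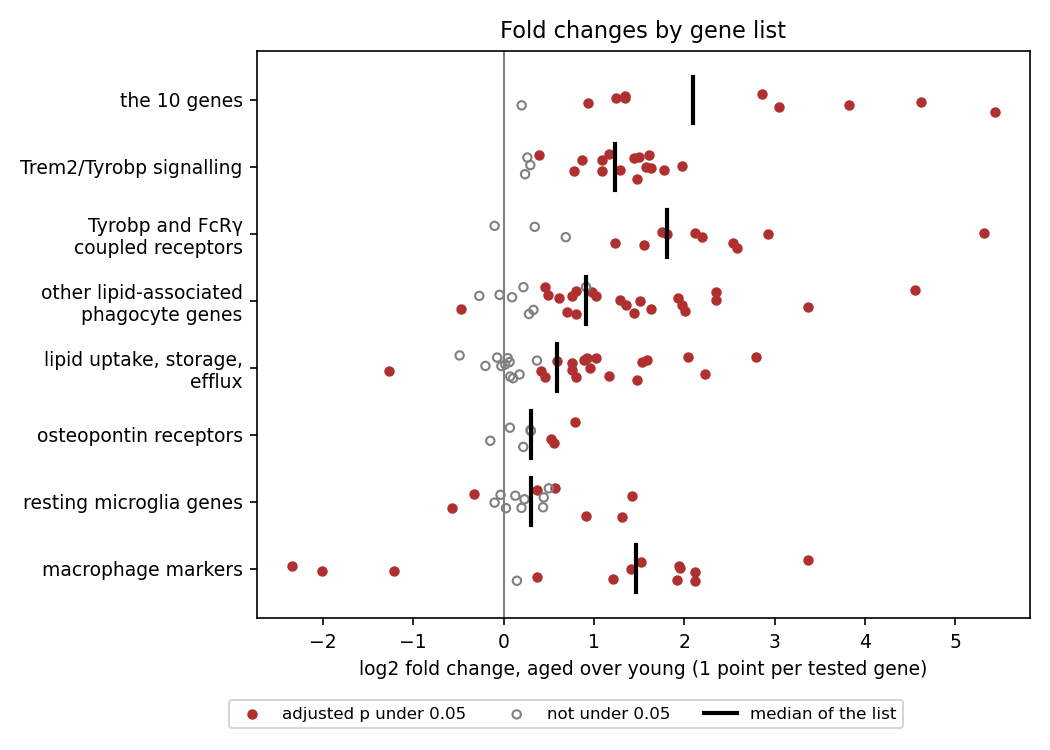
Log2 fold change, aged over young, of the tested genes of each list, with filled points for a deposited adjusted p under 0.05 and a black bar for the median. The medians run from 2.10 for the 10 genes and 1.81 for coupled receptors down to 0.30 for resting microglia genes, and 3 macrophage markers lie below -1.

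Markers of macrophages went both ways, most of them up. Of 14 markers, all tested and none at 0, 10 rose, 3 fell and Mrc1 was not called, beside 11.3% and 9.92% of all tested genes that rose and fell, with a median of 1.47 and a summed worked-out level of 13638 in young and 35218 in aged mice. The general macrophage gene Adgre1, listed under its older symbol Emr1, rose by 2.12 (SE 0.16), whereas Csf1r, the receptor on which macrophages depend for survival, rose by 0.37 (SE 0.13). The genes that fell mark resident macrophages around vessels and in connective tissue. They were Cd163 by 2.34 (SE 0.24), Lyve1 by 2.01 (SE 0.27) and Timd4 by 1.22 (SE 0.44). Mrc1, a mannose receptor of such cells, had 0.15 (SE 0.14).

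Set against these genes, the members spread widely. The difference between the log2 fold change of Itgax and that of Adgre1 was 3.32, a 9.95-fold rise of their ratio, and that of Clec7a was 2.51. Trem2, Tyrobp and Fabp5 lay 1.70, 0.93 and 0.74 above Adgre1. Gpnmb and Spp1 lay 0.77 below it, Apoe 0.87 and Cd9 1.19. Against Csf1r, 9 of the 10 lay higher, by 0.56 for Cd9 to 5.06 for Itgax, and Lpl lay 0.17 lower. These differences are given without an error, for the reason given above for pairs of genes. The part of macrophage number in the values of the 10 genes was not tested.

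Markers of other cells stood as follows, where 11.3% of all tested genes were higher and 9.92% lower. RPE markers, of a tissue that makes Apoe and Gpnmb, had a median of 0.28, with 2 of 8 tested genes higher, Rgr and Best1, of which 1 was left at an adjusted p under 0.01. Melanocyte markers had 0.05, with 1 of 7 lower, Tyr. For fat cells, which make Lpl and Fabp4, 0 of 6 tested markers were called in the DESeq2 comparison, 1 had an unadjusted p under 0.05, and Adipoq, which defines these cells, had a baseMean of 22.8. Dendritic cell markers, of cells that carry Itgax, were called higher in 2 of 8, Flt3 and Xcr1, and lower in 1, Dpp4, and 0 of the higher calls were left at a baseMean of at least 100. Neutrophil markers were higher in 3 of 5 tested genes, and their defining gene Ly6g was nearly absent, at a baseMean of 0.296. Osteoclasts, which share Trem2, Tyrobp, Gpnmb and Spp1 with these phagocytes, gave 3 higher markers of 7 tested. The higher markers were Atp6v0d2 (6.90), Acp5 (3.23) and Tnfrsf11a (0.81). The 4 not called were Calcr (0.54), Ctsk (0.22), Mmp9 (-0.12) and Dcstamp (-0.26), with baseMeans of 7.97 for Calcr and 10.2 for Dcstamp. Ocstamp (baseMean 3.72) carried no deposited adjusted p and was left untested. Muller glia and astrocyte markers had a median of 0.06, with Kcnj10 higher (1.07) and Aqp4 lower (-0.45) among 7. Endothelial markers had a median of -0.12, with Vwf higher (0.69) and Tek lower (-0.44) among 7 tested. Skeletal muscle markers had a median of -0.27, with 2 of 7 tested genes lower, Mylpf (-0.92) and Myh1 (-0.70). The part of these cells was not tested.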

How the data were processed

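RNA of 6 RPE/choroid samples, 3 young and 3 aged, was depleted of ribosomal RNA by the authors and sequenced from stranded libraries without poly(A) selection. Per the labels and the methods of the study, reads were trimmed with BBDuk, aligned with STAR to transcripts of GRCm38, quantified with Sailfish, scaled by total count and compared with DESeq2. The handling of reads shared between genes is not given in the sources used here. The deposited table is the authors' own comparison, with 1 line per gene. It gives baseMean, a normalized signal averaged by the authors over all libraries. The log2 fold changes and their SEs are those of the authors. The Wald score, the p-value and the Benjamini-Hochberg adjusted p-value are likewise those the authors deposited, and no test per gene was rerun. The depth per library is unknown here, so no interval for counting error is given.

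The sign was reversed to read as aged over young. Whether fold changes were shrunk towards 0 is not stated. The SE never exceeded 0.46, and its median was 0.24 below a baseMean of 2 but 0.43 among tested genes below 30. Changes of low genes, and of others with a large SE such as Fabp5, may therefore be understated. Group means were worked out with equal groups, as aged plus young equal to 2 baseMean. The adjustment and centring steps used below were checked on simulated data. Gene places, transcript lengths and shared 31-base words came from GENCODE M21 (GRCm38) and promoters from RefSeq. Symbols absent from the table were matched through RefSeq synonyms, which found all 5 of them. Python 3.11.15, pandas 2.3.3 and scipy 1.17.1 were used.

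The members and gene lists were chosen with earlier results of these data known, and lists share some genes. Named are all members, all genes of their families and, per other list, the largest rise, the largest fall and the highest baseMean among tested genes with a baseMean of at least 100. Some genes this rule would name are counted but not reported here. Further genes were named after their values were seen.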

Additional observations from a re-analysis of the deposited data

How the results depend on the processing

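The alternatives were a threshold of 0.01, a minimum log2 change of 1 in either direction, no filter on low genes, only genes with a baseMean of at least 100, and centring on abundant genes, whose median was 0.06. A p worked out from the Wald score where none was deposited was a choice made after seeing the data. The number of the 10 genes called was 9 under each of these except the fold-change minimum, which left 8 by losing Cd9 at 0.93. Centring moved their median from 2.10 to 2.04 and reversed no member. The fold-change minimum lowered the calls among the listed genes outside families and markers from 73 to 46, and by list to 13 for other phagocyte genes, 9 for lipid handling, 2 for resting microglia genes and 0 for osteopontin receptors. A threshold of 0.01 left 4 resting microglia genes, and the baseMean minimum left 6 coupled receptors. These settings are stricter, or test fewer genes, by construction. Among families, the baseMean minimum left 1 of 4 Trem and Treml calls, the threshold of 0.01, no low filter and centring each left 3, and the fold-change minimum 2 of 4 tetraspanin calls. RPE marker calls went from 2 to 1 at the threshold of 0.01, without the low filter, at the baseMean minimum and with centring, and to 0 at the fold-change minimum. Dendritic cell calls went from 3 to 1 at either minimum. Endothelial and Muller glia calls went from 2 to 1 at the threshold of 0.01. The fold-change minimum left 1 Muller glia call and 0 for endothelium, melanocytes and skeletal muscle. Over all genes, the threshold of 0.01 left 2520 of 3949 calls and the fold-change minimum 1542, and centring gave 1650 higher and 2289 lower calls, against 2100 and 1849.

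No paired analysis was possible because values of single libraries were not analysed here, and for the same reason leaving out each library was not run. What limits precision is the SE, whose median was 0.19 over tested genes and 0.43 among those with a baseMean under 30.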
